A study of Mus musculus with 20 samples.

Results

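The acute phase proteins described here are 10 secreted proteins, most of them made mainly by the liver. Saa3 and Lcn2 are also made by other cells. The 10 include the serum amyloid A proteins Saa1, Saa2, Saa3 and Saa4, the scavengers haptoglobin (Hp) and hemopexin (Hpx), and the carrier orosomucoid 2 (Orm2). The others are the siderophore binder lipocalin 2 (Lcn2) and the pentraxins serum amyloid P (Apcs) and C-reactive protein (Crp). Every probe set whose annotated symbol was exactly one of these genes was taken, which gave 12 of the 45037 probe sets on the Affymetrix Mouse430_2 array. Saa1 and Saa4 had 2 probe sets each and the other genes had 1. Livers of 20 male mice, 9 weeks old at first dose, were profiled in 4 groups of 5, each liver on its own array. WT mice (PXR+/+, C57BL/6) and PXR-KO mice (PXR-/-, named C57BL/6NTac as the liver source and C57BL/6 as strain) received by gavage either vehicle or 150 mg/kg CMP013, an inhibitor of the protease BACE1, every 24 h, and were sampled at 96 h. The nuclear receptor PXR senses foreign compounds in liver, and the design asks which responses to CMP013 differ between animals with and without it. The C57BL/6NTac source was named for the PXR-KO animals alone, so that loss of PXR and strain background cannot be told apart.

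In the acute phase response, macrophages release interleukin-1, interleukin-6 and tumor necrosis factor, and hepatocytes answer through the transcription factors STAT3, C/EBP and NFκB with a large change in the proteins they secrete. Proteins whose plasma level rises are called positive acute phase proteins, and those that fall, such as albumin, are called negative. In mice Saa1, Saa2, Saa3, Orm2, Lcn2 and Apcs are strong positive reactants, Hp and Hpx are moderate ones, Saa4 is made constitutively, and Crp is only a minor reactant.

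The values were ratios. Each animal was divided by the mean of the 5 vehicle animals of its own genotype, and the ratio is given below on the log2 scale, where 1 is a doubling of that mean and 0 is no difference. Such values carry no expression level, so the genes cannot be ranked by abundance, and the genotypes can be compared in their response but not in their baseline. Because whole liver was extracted, fewer cells of a type and less RNA per cell cannot be told apart. Array medians lay between -0.027 and 0.012, and the median SD between vehicle animals over all probe sets was 0.25 for WT and 0.27 for PXR-KO. Each replicate was an animal, and only the response of liver RNA at 1 dose and 1 time was available.

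The serum amyloid A genes lie side by side on mouse chromosome 7 and span 42.3 kb (GRCm38.p6). RefSeq places Saa3 at chr7:46711998-46719615, Saa4 at chr7:46727992-46732603, Saa1 at chr7:46740497-46743181 and Saa2 at chr7:46751833-46754313. The 250 bases before the transcript start are printed for the inducible Saa genes and for Lcn2, since these members gave the widest range of responses and since Saa1 and Saa2 are so alike. Capitals mark letters that match a κB motif, the C/EBP motif TTNNGNAA or the STAT motif TTCNNNGAA on either strand. The windows of Saa1 and Saa3 start inside the gene spans given above, which reach further upstream than the start used for the window.
Saa1 (chr7:46742981-46743230, minus strand): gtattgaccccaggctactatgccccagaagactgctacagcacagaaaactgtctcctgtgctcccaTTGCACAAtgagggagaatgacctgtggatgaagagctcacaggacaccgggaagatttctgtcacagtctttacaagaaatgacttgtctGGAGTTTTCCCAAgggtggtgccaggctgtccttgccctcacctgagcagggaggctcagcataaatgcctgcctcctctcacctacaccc
Saa2 (chr7:46751583-46751832, plus strand): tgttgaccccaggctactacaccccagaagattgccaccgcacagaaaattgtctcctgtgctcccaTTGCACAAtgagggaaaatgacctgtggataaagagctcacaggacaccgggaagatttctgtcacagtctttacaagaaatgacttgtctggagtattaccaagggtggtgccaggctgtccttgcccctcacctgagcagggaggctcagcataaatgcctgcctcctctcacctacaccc
Saa3 (chr7:46715677-46715926, minus strand): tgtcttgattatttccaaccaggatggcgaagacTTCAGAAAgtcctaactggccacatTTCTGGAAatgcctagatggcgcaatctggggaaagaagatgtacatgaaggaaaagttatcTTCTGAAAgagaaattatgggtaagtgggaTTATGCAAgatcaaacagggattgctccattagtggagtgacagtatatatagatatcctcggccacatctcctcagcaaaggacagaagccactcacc
Lcn2 (chr2:32387740-32387989, minus strand): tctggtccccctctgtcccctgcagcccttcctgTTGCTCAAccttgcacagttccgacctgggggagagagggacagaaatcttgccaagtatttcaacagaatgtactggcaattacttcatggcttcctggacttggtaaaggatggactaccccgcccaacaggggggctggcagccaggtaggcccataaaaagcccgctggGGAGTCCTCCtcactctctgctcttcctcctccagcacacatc

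The Saa1 and Saa2 windows were identical at 238 of 251 aligned positions (94.8%), whereas Saa1 and Saa3 shared 48.9% and Saa1 and Saa4 shared 42.6%. Saa1 held a C/EBP match at positions -182 to -175 from the start, and a κB match at -91 to -82 whose last letters overlapped a further C/EBP match. Saa2 kept the distal C/EBP letters and had neither a κB match nor the proximal C/EBP match. Saa3 held 4 C/EBP matches and no κB match, and Lcn2 held 1 C/EBP match and 1 κB match. Among the members not printed, Apcs had 1 STAT match, and Orm2, Saa4 and Hpx had 2 C/EBP matches each and Crp had 1. Over all 32536 windows of this length the κB motif was found in 9.59%, the C/EBP motif in 36.8% and the STAT motif in 7.04%. A match is a description of letters and not a bound site.

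CMP013 changed 8 of the 12 probe sets in WT livers and 2 in PXR-KO livers, and the responses of the genotypes differed at 6. In WT livers Saa1, Saa4 and Crp fell (5 probe sets) while Orm2, Lcn2 and Apcs rose (3 probe sets). In PXR-KO livers Saa3 and Lcn2 rose and none passed the test downward, where 0 of 12 had an unadjusted p under 0.05 in that direction. The responses differed at both Saa1 and both Saa4 probe sets, Saa3 and Crp, with the WT response the lower at all 6 (0 higher, also at an unadjusted p under 0.05). Over all 45037 probe sets the test called 14.4% in WT (7.67% higher and 6.72% lower), 3.65% in PXR-KO (2.12% higher and 1.54% lower) and 11.0% for the difference (5.47% higher and 5.49% lower). The median log2 fold change of the 12 probe sets was -0.46 in WT and 0.81 in PXR-KO livers, against -0.010 and 0.0076 over all probe sets, and the median difference was -1.36 against -0.018. These are limma tests with Benjamini-Hochberg adjustment over all probe sets and an adjusted p under 0.05 as the threshold. With quantile normalization 3 of the 12 were called in WT, the Saa1, Orm2, Lcn2 and Crp calls being lost, and 2 for the difference. For the difference Saa3 and Saa4 (1419319_at) still passed, and both Saa1 probe sets, Saa4 (1419318_at) and Crp no longer did. Calls over all 45037 probe sets also fell with this setting, to 3.94% in WT and 2.73% for the difference. A trended, robust fit called 0 of the 12 in PXR-KO livers (5 at an unadjusted p under 0.05). It called 0 of all 45037 probe sets there, so this 0 is not particular to the members.

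**Figure D1:**
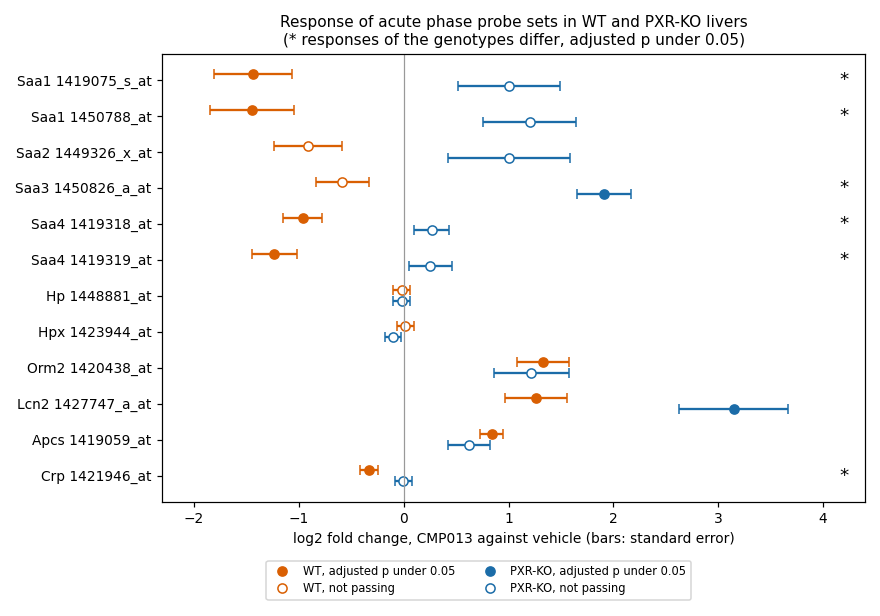
Log2 fold change of CMP013 against vehicle (horizontal axis) with its standard error for the 12 acute phase probe sets, in WT (orange) and PXR-KO (blue) livers with 5 animals per group. Filled points passed the adjusted p of 0.05 and asterisks mark the 6 probe sets whose responses differed between genotypes; the serum amyloid A points lie left of 0 in WT and right of 0 in PXR-KO, while Hp lies near 0 in both and Hpx near 0 in WT and at -0.10 in PXR-KO.

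The groups of animals did not overlap for 6 WT probe sets (Orm2, Lcn2 and Apcs above vehicle, both Saa4 probe sets and Crp below), where 14.7% of all probe sets did so, 7.78% above and 6.96% below. In PXR-KO mice they did not overlap for 2 (Saa3 and Lcn2, both above), where 7.57% of all probe sets did so, 4.07% above and 3.5% below. All 5 treated animals passed a 1.25-fold change in one direction for 7 of the 12 in WT livers and 5 in PXR-KO livers, against 10.5% and 5.32% of all probe sets.

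Saa1, which replaces apolipoprotein A-I on high density lipoprotein during inflammation, fell in WT and had ratios of the opposite sign in PXR-KO livers. On probe set 1450788_at, WT vehicle animals 1 to 5 had log2 ratios of -0.54, -0.13, -0.69, 0.60 and 0.74 and WT CMP013 animals had -0.72, -2.41, -0.64, -1.70 and -1.78. PXR-KO vehicle animals had -0.77, -0.56, -0.16, 1.87 and 0.10, and PXR-KO CMP013 animals had 1.94, 1.05, 1.30, 1.05 and 1.14. In WT, treated animals 2, 4 and 5 lay far below all vehicle animals and animals 1 and 3 lay at the lower vehicle edge, with overlap through animal 3. In PXR-KO, all treated animals lay above 4 of the vehicle animals, and vehicle animal 4 lay among the treated ones. Saa1 fell by 1.44 on the log2 scale in WT (SE 0.40, adjusted p = 0.0385), an averaged fold change of -3.04 ± 1.54 (SD, n = 5, the inverse of the ratios). The PXR-KO response was 1.20 (SE 0.45, adjusted p = 0.169), which did not pass. The difference of the responses was -2.65 (SE 0.63, adjusted p = 0.0107), and -2.10 (adjusted p = 0.153) with quantile normalization, which did not pass.

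Probe set 1419075_s_at gave the same picture for Saa1, with WT CMP013 animals from -2.33 to -0.47 and PXR-KO CMP013 animals from 0.69 to 1.94. Its log2 fold change was -1.43 in WT (SE 0.37, adjusted p = 0.0289) against 1.00 in PXR-KO (SE 0.48, adjusted p = 0.280), with a difference of -2.44 (SE 0.64, adjusted p = 0.0194), or -1.93 (adjusted p = 0.219) after quantile normalization. The array annotation calls this probe set Saa1, but the transcript it was designed on is Saa2 in RefSeq. Saa1 and Saa2 are near copies, and probe sets marked _s_ or _x_ can take up RNA of both, so these 2 genes are not resolved with certainty. Without PXR-KO vehicle animal 4, both Saa1 probe sets also passed in PXR-KO livers, at 1.48 (adjusted p = 0.0275) and 1.65 (adjusted p = 0.0152). The WT fall lost its call at both probe sets when any one of WT vehicle animals 2, 4 and 5 or WT CMP013 animals 2, 4 and 5 was left out, with an adjusted p of up to 0.0678 and 0.0857.

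Saa2, the close relative of Saa1, had 1 probe set by annotation (1449326_x_at), which did not pass in either genotype. Probe set 1419075_s_at, described above under Saa1, was designed on the same Saa2 transcript and passed in WT. WT CMP013 animals lay at -0.66, -1.60, 0.12, -1.16 and -1.18 and PXR-KO CMP013 animals at 1.94, 0.26, 0.58, 0.23 and 0.46. In WT vehicle the range was -0.58 to 0.52, and in PXR-KO vehicle 4 animals lay between -1.19 and -0.62 with animal 4 at 1.93. The groups overlapped in both genotypes. The WT log2 fold change was -0.91 (adjusted p = 0.0939), the PXR-KO one 1.00 (adjusted p = 0.364), and their difference was -1.92 (95% interval -3.38 to -0.45, adjusted p = 0.0888). Without PXR-KO vehicle animal 4 the difference was -2.48 (adjusted p = 0.00374) and the PXR-KO response 1.56 (adjusted p = 0.0521). The difference passed in only 1 of the 20 fits that left out 1 animal (adjusted p up to 0.151).

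Saa3, the serum amyloid A that macrophages and fat also make, rose in PXR-KO livers. PXR-KO vehicle animals had log2 ratios of -0.091, -0.37, 0.11, 0.34 and -0.11, and PXR-KO CMP013 animals had 2.76, 1.59, 1.57, 2.16 and 1.36. Every treated animal was above every vehicle animal, the lowest by about 1 log2 unit. WT vehicle animals had -0.15, 0.29, -0.20, -0.20 and 0.59, and WT CMP013 animals had -0.086, -0.62, -0.049, -0.56 and -1.28. The WT groups overlapped, with animals 2, 4 and 5 lowest. The averaged fold change in PXR-KO was 3.96 ± 1.73 (SD, n = 5), a log2 fold change of 1.91 (SE 0.26, adjusted p = 0.00552). The WT response was -0.58 (SE 0.25, adjusted p = 0.165), and the responses differed by -2.50 (SE 0.38, adjusted p = 0.000297).

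Saa4, the constitutive serum amyloid A of lipoproteins, fell in WT. On probe set 1419319_at, WT vehicle animals had -0.20, 0.039, -0.22, 0.053 and 0.31 and WT CMP013 animals had -0.79, -1.81, -0.86, -1.07 and -1.66. PXR-KO vehicle animals had -0.43, -0.30, -0.031, 0.49 and 0.22, and PXR-KO CMP013 animals had 0.73, -0.095, 0.12, 0.10 and 0.36. All WT treated animals were below all WT vehicle animals, with animals 2 and 5 lowest, and the PXR-KO groups overlapped. The log2 fold change was -1.23 in WT (SE 0.22, adjusted p = 0.00457), an averaged fold change of -2.46 ± 0.82, and 0.26 in PXR-KO (SE 0.21, adjusted p = 0.525). Probe set 1419318_at had -0.96 in WT (SE 0.18, adjusted p = 0.0071) and 0.27 in PXR-KO (SE 0.17, adjusted p = 0.412). The responses differed by -1.49 (adjusted p = 0.00405) and -1.23 (adjusted p = 0.00407) on these 2 probe sets.

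**Figure D2:**
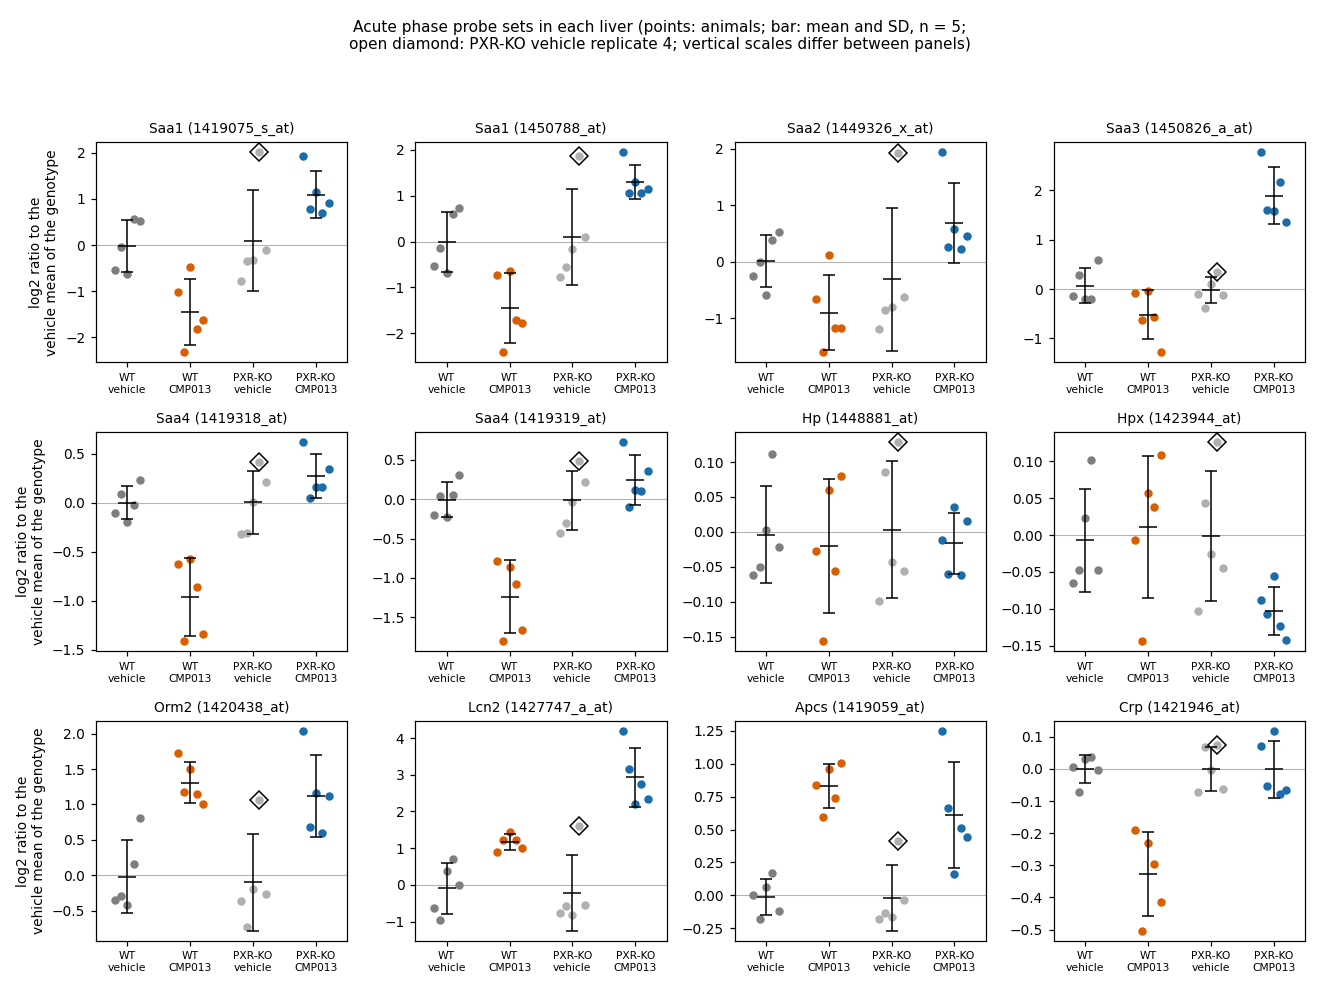
Log2 ratio to the vehicle mean of the genotype (vertical axis, scale set per panel) in each animal for the 12 acute phase probe sets; points are animals, bars are the mean and SD of 5, and the open diamond marks PXR-KO vehicle animal 4. That animal is the highest of its group in all 12 panels, and the WT CMP013 points lie below all WT vehicle points at Saa4 and Crp and above them at Orm2, Lcn2 and Apcs.

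Orm2, an orosomucoid that carries lipids and drugs in plasma (chr4:63362449-63365877), was higher with CMP013 in WT mice and had a similar estimate in PXR-KO mice. WT vehicle animals had log2 ratios of -0.36, -0.30, -0.42, 0.16 and 0.81, and WT CMP013 animals had 1.72, 1.18, 1.50, 1.14 and 1.00. PXR-KO vehicle animals had -0.36, -0.74, -0.20, 1.07 and -0.27, and PXR-KO CMP013 animals had 2.04, 0.68, 1.16, 0.60 and 1.11. The WT groups did not overlap, and in PXR-KO only vehicle animal 4 reached the treated range. Orm2 rose in WT by a log2 fold change of 1.33 (SE 0.25, adjusted p = 0.00605), an averaged fold change of 2.52 ± 0.53. The PXR-KO value was 1.22 (SE 0.36, adjusted p = 0.0942), and 1.51 (adjusted p = 0.0332) without vehicle animal 4. The difference between the responses was 0.11 with a 95% interval of -0.84 to 1.07 (adjusted p = 0.911), wide enough to hold a difference of nearly 1 log2 unit either way.

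Lcn2, which withholds iron from bacteria by binding their siderophores (chr2:32384637-32387739), rose in both genotypes. WT vehicle animals had -0.62, -0.96, 0.37, 0.72 and 0.011, and WT CMP013 animals had 0.90, 1.24, 1.45, 1.24 and 1.01. PXR-KO vehicle animals had -0.78, -0.56, -0.81, 1.61 and -0.55, and PXR-KO CMP013 animals had 4.19, 3.16, 2.21, 2.75 and 2.34. The groups overlapped in neither genotype, and all PXR-KO treated animals lay above all WT treated animals on their own genotype's scale. The averaged fold change was 2.26 ± 0.34 in WT and 8.73 ± 5.61 in PXR-KO (SD, n = 5), or log2 fold changes of 1.26 (SE 0.30, adjusted p = 0.0185) and 3.15 (SE 0.52, adjusted p = 0.0129). The difference of -1.89 (95% interval -3.21 to -0.56) had an adjusted p of 0.0623 and did not pass over all animals. Without PXR-KO vehicle animal 4 it was -2.34 (adjusted p = 0.0054), and it also passed when WT vehicle animal 2 or PXR-KO CMP013 animal 3 was left out. In all, the difference passed in 3 of the 20 fits that left out 1 animal and not in the other 17 (adjusted p up to 0.106).

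Apcs, the pentraxin serum amyloid P that coats amyloid fibrils (chr1:172893961-172895054), rose in WT. WT vehicle animals had 0.0046, -0.18, 0.062, 0.17 and -0.12, and WT CMP013 animals had 0.84, 0.59, 0.96, 0.74 and 1.01. PXR-KO vehicle animals had -0.18, -0.13, -0.16, 0.41 and -0.031, and PXR-KO CMP013 animals had 1.25, 0.67, 0.16, 0.51 and 0.44. The WT groups were clearly apart, whereas PXR-KO treated animal 3 lay below vehicle animal 4. The WT log2 fold change was 0.84 (SE 0.11, adjusted p = 0.000916), an averaged fold change of 1.78 ± 0.20, the smallest adjusted p of the 12 probe sets in that genotype. The PXR-KO value was 0.63 (SE 0.20, adjusted p = 0.116), and the difference was 0.21 (95% interval -0.27 to 0.69, adjusted p = 0.610).

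Crp, the other pentraxin (chr1:172698056-172699966), fell slightly in WT. WT CMP013 animals had -0.19, -0.50, -0.23, -0.30 and -0.42, and WT vehicle animals lay between -0.07 and 0.036. PXR-KO vehicle animals lay between -0.072 and 0.073 and PXR-KO CMP013 animals between -0.078 and 0.12. The WT groups did not overlap although the shift was small, and the PXR-KO groups covered the same range. The WT log2 fold change was -0.33 (SE 0.09, adjusted p = 0.0290), an averaged fold change of -1.26 ± 0.12, and the PXR-KO value was -0.0015 (adjusted p = 0.995). The difference of -0.33 (SE 0.10, adjusted p = 0.0493) lay at the threshold and passed in only 2 of the 20 fits that left out 1 animal. The WT fall itself was lost in 7 of 10 such fits (adjusted p up to 0.0680).

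Hp, which binds free haemoglobin (chr8:109575128-109579172), and Hpx, which binds free haem (chr7:105591611-105600116), stayed within narrow ranges. Hp lay between -0.16 and 0.13 in all 20 animals and Hpx between -0.14 and 0.13. Their SD between vehicle animals ranked at percentile 5.68 to 10.4 of all probe sets. The log2 fold change of Hp was -0.016 in WT (95% interval -0.19 to 0.16, adjusted p = 0.927) and -0.020 in PXR-KO (-0.20 to 0.16, adjusted p = 0.920). For Hpx it was 0.018 in WT (-0.16 to 0.20, adjusted p = 0.921) and -0.10 in PXR-KO (-0.27 to 0.07, adjusted p = 0.497). The intervals of these 2 scavengers reached no more than 0.27 log2 units from 0, smaller than the WT changes of Saa1, Orm2 and Lcn2.

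The highest and lowest animals were often the same ones across the members. PXR-KO vehicle animal 4 was the highest of its group at 12 of 12 probe sets, whereas it was highest at 19.3% of all probe sets on the array. PXR-KO CMP013 animal 1 was highest at 9 of 12 (21.4% of all probe sets), and WT CMP013 animal 2 was lowest at 9 of 12 (17.2%). The SD of the 5 PXR-KO vehicle animals was 1.27 at Saa2, 1.05 and 1.10 at Saa1 and 1.03 at Lcn2. Without vehicle animal 4 the PXR-KO response passed at 5 probe sets in place of 2, with both Saa1 probe sets and Orm2 gained. The difference passed at 7 in place of 6, with Saa2 and Lcn2 gained and Crp lost. Over all probe sets the calls fell from 3.65% to 1.91% in PXR-KO and from 11.0% to 9.43% for the difference. The PXR-KO response of Saa3 was nearly the same, at 2.01 (adjusted p = 0.0129).

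As a description of how the members moved within groups, deviations from the group mean were correlated over the 20 arrays, which share their vehicle denominators within a genotype. The 2 Saa4 probe sets had r = 0.99, the 2 Saa1 probe sets r = 0.98, and Hp with Hpx r = 0.92. Saa1 (1450788_at) had r = 0.86 with Orm2 (0.77 without PXR-KO vehicle animal 4) and 0.63 with Lcn2 (0.33 without it), so the value with Lcn2 rests largely on that animal. Lcn2 and Apcs had r = 0.82 and 0.78 without it. Likeness to genes outside the members was taken on the log2 ratios themselves over the 20 arrays. Those r values include the responses to CMP013 and are not comparable with the ones within groups. The most similar genes were Foxa3 (r = 0.95), Ang (0.93) and Itih4 (0.92) for Saa1. Dab1 (0.87), Slc29a4 (0.85) and Wdr91 (0.84) came closest to Hp, and Fgl1 (0.92), Brca1 (0.92) and Dnajc3 (0.91) to Lcn2. These are the highest r over all genes outside the members, each gene taken at its best probe set, so the selection itself raises them. Hp stayed between -0.16 and 0.13, so its r values rest on small differences between arrays.

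Other positive acute phase genes showed the same opposite signs as the Saa genes at several members, as drawn in the plot of other acute phase and cytokine genes. Of 26 listed genes 22 were measured. In WT 1 rose and 9 fell, in PXR-KO 3 rose and 0 fell (0 also at an unadjusted p under 0.05), and the responses differed at 10, all lower in WT. Over all probe sets 7.67% rose and 6.72% fell in WT, 2.12% rose and 1.54% fell in PXR-KO, and 5.49% had the lower response in WT. The median of the list was -0.30 in WT and 0.31 in PXR-KO. Lrg1, a leucine-rich glycoprotein of plasma, fell by 1.91 in WT (adjusted p = 0.000202) and had 0.32 in PXR-KO (adjusted p = 0.253). Lbp, which presents bacterial lipopolysaccharide to CD14, fell by 0.70 in WT (adjusted p = 0.0202) and rose by 1.72 in PXR-KO (adjusted p = 0.00496). WT CMP013 animals lay between -0.86 and -0.020 at Lbp and PXR-KO CMP013 animals between 1.23 and 2.52. Hamp, the iron hormone hepcidin, fell by 1.04 in WT (adjusted p = 0.0109). Orm3, a paralog of Orm2, rose in both genotypes, by 3.14 in WT (adjusted p = 9.11e-05) and by 2.48 in PXR-KO (adjusted p = 0.00429). Orm1, chosen after its values were seen because it is the remaining gene of that family on the list, had 0.10 and 0.11 and passed in neither. The negative acute phase list had 13 of 15 genes measured, of which Igf1 (-0.80, adjusted p = 0.000485) and Lcat (-0.61, adjusted p = 0.000645) fell in WT and none passed in PXR-KO (1 at an unadjusted p under 0.05).

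**Figure D3:**
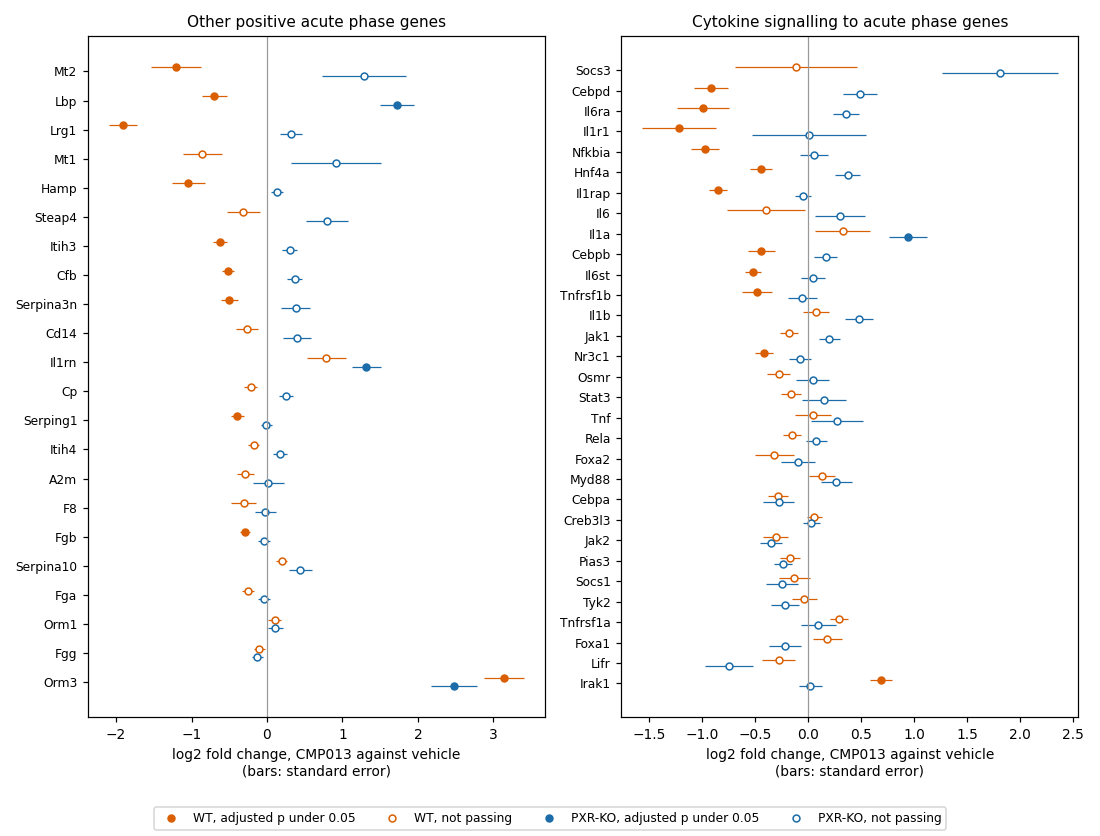
Log2 fold change of CMP013 against vehicle (horizontal axis) with its standard error for 22 other positive acute phase genes (left) and 31 genes of cytokine signalling to them (right), in WT (orange) and PXR-KO (blue) livers with 5 animals per group; filled points passed the adjusted p of 0.05. Genes are ordered by the difference of the responses, and Lrg1, Hamp, Cebpd, Nfkbia and Il1rap are filled to the left of 0 in WT only, while Orm3 is filled to the right in both.

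Of 34 genes that carry cytokine signals to acute phase promoters 31 were measured, and in WT 10 fell and 1 rose. Over all probe sets 6.72% fell and 7.67% rose in WT, and 2.12% rose and 1.54% fell in PXR-KO. The responses of the genotypes differed at 11.0% of all probe sets, 5.49% lower and 5.47% higher in WT. Cebpd, a C/EBP factor of the acute phase response, fell by 0.92 (adjusted p = 0.00398), Nfkbia, the NFκB inhibitor and target, fell by 0.98 (adjusted p = 0.00103), and the receptor subunits Il1rap and Il6st fell by 0.85 (adjusted p = 0.000233) and 0.53 (adjusted p = 0.00169). Irak1, an interleukin-1 receptor kinase, rose by 0.69 (adjusted p = 0.00215). In PXR-KO livers Il1a rose by 0.94 (adjusted p = 0.0222) and no other gene of the list passed (with Il1a, 6 were higher and 3 lower at an unadjusted p under 0.05). The responses differed at 9 genes, 8 of them lower in WT, among them Cebpd (-1.40, adjusted p = 0.00059) and the receptor Il6ra (-1.35, adjusted p = 0.0042). The cytokines Il6, Il1b and Tnf and the inhibitor Socs3, looked up after the other values were seen, passed in neither genotype. Socs3 had the largest of these values, 1.81 in PXR-KO (SE 0.54, adjusted p = 0.1004).

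The genes that clear haemoglobin, haem and siderophores after capture by Hp, Hpx or Lcn2 include several that changed. Of 11 measured, 4 rose and 4 fell in WT and 2 rose in PXR-KO. Over all probe sets 7.67% rose and 6.72% fell in WT and 2.12% rose in PXR-KO. The haem transporter Slc48a1 rose by 2.33 in WT (adjusted p = 4.52e-07) and biliverdin reductase Blvrb by 1.37 (adjusted p = 4.46e-05). Lrp1, the receptor for the hemopexin complex, fell by 0.84 (adjusted p = 0.000246) and Cd163, the receptor for the haptoglobin complex, fell by 0.59 (adjusted p = 0.0103). Haem oxygenase Hmox1 rose by 1.51 in PXR-KO (adjusted p = 0.00482) and had -0.063 in WT, and these responses differed (adjusted p = 0.000397).

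Saa3 and Lcn2 can also be made by myeloid cells, so markers of other cell types are given beside them. Of 13 neutrophil markers measured, 2 rose in WT and 1 in PXR-KO, where 7.67% and 2.12% of all probe sets rose, so these counts do not set the list apart. S100a8 rose by 1.12 in WT (adjusted p = 0.0108) and by 2.08 in PXR-KO (adjusted p = 0.0343), while the granule genes Camp and Ngp passed in neither. The mean log2 ratio of the neutrophil list per animal ran from -0.17 to 0.020 in WT vehicle, -0.064 to 0.43 in WT CMP013, -0.15 to 0.17 in PXR-KO vehicle and -0.00064 to 1.17 in PXR-KO CMP013. The highest of these, 1.17, was PXR-KO CMP013 animal 1, which was also the highest at Saa3 and Lcn2. Of 16 Kupffer cell and macrophage markers, 4 fell in WT, where 6.72% of all probe sets fell. In PXR-KO 3 rose and 1 fell, where 2.12% of all probe sets rose and 1.54% fell. Marco rose by 4.22 (adjusted p = 0.00894) and Cd68 by 1.11 (adjusted p = 0.00381) in PXR-KO, whereas Adgre1 had -0.14 (adjusted p = 0.749). The mean of this list per animal was -0.34 to 0.19 in WT vehicle, -0.41 to -0.077 in WT CMP013, -0.42 to 0.46 in PXR-KO vehicle and 0.26 to 0.54 in PXR-KO CMP013. None of 10 lymphocyte markers passed in either genotype (3 in each at an unadjusted p under 0.05), and of 14 hepatocyte markers 3 fell in WT and none changed in PXR-KO (2 at an unadjusted p under 0.05). The part of these cells in the values of the members was not tested.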

How the data were processed

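Liver RNA of 20 mice was profiled on Affymetrix Mouse430_2 arrays, 1 array per animal. The authors deposited log10 ratios made in Rosetta Resolver (version 7.2), each animal's intensity over that of its genotype's averaged 5 vehicle mice. Without intensities, detection calls or platform p-values (not used here) signal over background is unknown, dim probe sets were kept, and neither expression levels nor the level of the deleted gene was analysed. The normalization makes vehicle animals centre near 0 in each genotype, and it removes any baseline difference between genotypes. The number of arrays limits the precision.

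The ratios were put on the log2 scale, and the functions lmFit and eBayes of limma 3.58.1 (R 4.3.3) were run on them. CMP013 was compared with vehicle on the 10 arrays of each genotype, and the difference, WT response minus PXR-KO response, on all 20. P-values were adjusted by Benjamini-Hochberg over 45037 probe sets, with a threshold of 0.05. The fits were tested on simulated data. An averaged fold change is the mean over the 5 treated ratios, or of their inverses with a minus sign for decreases.

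Probe sets were named by the platform annotation, in which 34945 name 1 gene, and no probe set named a member together with another gene. The members and the gene lists were chosen with earlier results of these data known. All member probe sets are named, and in the other lists up to 6 genes per comparison with the smallest adjusted p, plus defining neutrophil and Kupffer cell markers, could be named. A listed gene was measured by 1 probe set, without the _s_ or _x_ mark where possible and then with the smallest vehicle SD. Promoter windows came from a table of RefSeq sequences (GRCm38.p6), in which 9 of the 10 members were matched. Alternatives were another scaling, quantile normalization, a trended robust fit, array weights, all groups in one fit, a replicate block, and leaving out animals. The numbers shared by animals of different groups were not treated as pairs in the main fits.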

Additional observations from a re-analysis of the deposited data

Results flagged for a closer look

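Single animals stood apart from their group at 6 of the 48 group and probe set combinations examined with Dixon's test. By chance a single such test flags about 1 of 20. The 48 share the same animals and correlated probe sets, so the 6 cannot be set against that share. PXR-KO vehicle animal 4 was the one in 4 of the 6. Its log2 ratio was 2.01 at Saa1 (1419075_s_at, other animals -0.78 to -0.11), 1.93 at Saa2 (others -1.19 to -0.62), 1.61 at Lcn2 (others -0.81 to -0.55) and 0.41 at Apcs (others -0.18 to -0.031). PXR-KO CMP013 animal 1 was the other, at 1.94 for Saa1 (1450788_at, others 1.05 to 1.30) and 1.94 for Saa2 (others 0.23 to 0.58).

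The response to CMP013 differed between WT and PXR-KO mice by a limma test of the difference at 6 of the 12 probe sets. Over all probe sets 11.0% differed. The log2 difference, WT minus PXR-KO, was -2.44 and -2.65 at Saa1, -2.50 at Saa3, -1.23 and -1.49 at Saa4, and -0.33 at Crp.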

How the results depend on the processing

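Every direction that passed kept its sign under all alternatives run. Leaving out 1 animal gave 5 to 9 called probe sets in WT, 2 to 5 in PXR-KO and 5 to 7 for the difference, with 5 in WT when vehicle animal 4 or 5 or CMP013 animal 2, 4 or 5 was left out (Saa1 and Crp lost each time) and 5 in PXR-KO without vehicle animal 4. Saa4, Orm2, Lcn2 and Apcs in WT, Saa3 and Lcn2 in PXR-KO, and the differences at Saa1, Saa3 and Saa4 passed in every fit that left out 1 animal. Over all probe sets those fits called 10.6% to 13.2% in WT, 1.38% to 3.84% in PXR-KO and 8.68% to 11.4% for the difference. Quantile normalization left 3 called in WT, losing both Saa1 probe sets, Orm2, Lcn2 and Crp, and 2 for the difference. For the difference both Saa1 probe sets (adjusted p = 0.219 and 0.153), Saa4 1419318_at (0.0558) and Crp (0.330) no longer passed. Calls over all probe sets also fell, from 14.4% to 3.94% in WT and from 11.0% to 2.73% for the difference. The cause was not tested. Leaving out WT vehicle animals 3 and 4 and PXR-KO vehicle animals 2 and 4 together gave fits with fewer samples. These called 5 in WT, 3 in PXR-KO and 7 for the difference, against 7.35%, 0.806% and 5.65% of all probe sets. A trended, robust fit called 0 in PXR-KO, where 5 of the 12 had an unadjusted p under 0.05 and the smallest adjusted p over all probe sets was 0.0536. A single fit of all 4 groups called 4 in PXR-KO and 7 in WT (Lcn2 lost, adjusted p = 0.0585), against 6.77% and 17.6% of all probe sets. With a replicate block the counts were 3 in WT, 1 in PXR-KO (Lcn2 lost, adjusted p = 0.0765) and 5 for the difference. Over all probe sets the block left 6.72% called in WT, 0.264% in PXR-KO and 8.86% for the difference. The WT calls lost with the block were both Saa1 probe sets, Saa4 1419318_at (adjusted p = 0.0569), Orm2 (0.0512) and Crp (0.102). Deviations of same-numbered animals had r from -0.24 to 0.18 over all probe sets. In either genotype 0 of 5 treated animals correlated best with the vehicle animal of its number. No consistent pairing by number was seen over all probe sets, and a link between same-numbered animals at some genes was not tested. The filter on dim probe sets was not run because no intensities were used. Over single probe sets, 645 of the alternative values kept their side of the threshold, called or not, 61 lost a call and 14 gained one. The 645 include values of probe sets that passed in no fit, such as Hp and Hpx, so they are not a measure of calls kept. Signal over background limits what can be said of the lowest genes.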
